A study of Mus musculus with 10 samples.

Results

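This set comprises 48 genes of the extracellular matrix other than the collagens themselves, out of 51826 genes listed in each of 10 RNA-seq libraries of mouse inguinal white adipose tissue (iWAT). The rule names the genes, as matrix proteins and as enzymes that modify or cross-link collagen, and uses no values, but the set was drawn up with earlier results of these libraries known. They fall into 6 roles: 8 small leucine-rich proteoglycans, 2 large proteoglycans, 15 proteins of elastic fibres and microfibrils, 7 adhesive and matricellular glycoproteins, 5 lysyl oxidases and 11 collagen-processing proteins. Of the 48 genes, 47 had enough reads to be tested, and the prolyl hydroxylase subunit gene P4ha3, with 0 to 5 exon reads per library, did not. Together they took between 0.822% and 1.22% of the exon reads of a library.

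The mice were C57BL/6 males, 1 library each. The offspring generation (F1) consisted of 3 mice whose fathers ate the control diet (CD) and 3 mice whose fathers ate the low-protein diet (paternal LPD, pLPD). These offspring ate the CD themselves and were 5 weeks old when their iWAT was taken, and the 3 of a group came from different mothers. The F0 generation consisted of 2 males fed the CD and 2 males fed the LPD, aged 10 to 12 weeks, so that in F0 the diet acted on the mouse measured and in F1 on its father. Replicate numbers of mice are those of the labels and carry no order. iWAT is a mixture of cells, and in such bulk RNA a lower level of a transcript can be fewer cells that make it or less RNA per cell, which cannot be told apart here.

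The matrix of adipose tissue is built mainly by fibroblasts and adipocyte progenitors, with contributions from adipocytes, endothelium and smooth muscle. Fibrillins form microfibrils on which elastin is laid down with the help of fibulins, and latent TGF-beta binding proteins dock on the same microfibrils. Collagen chains are hydroxylated and chaperoned in the endoplasmic reticulum, trimmed of their propeptides outside the cell, spaced by small leucine-rich proteoglycans and then cross-linked, together with elastin, by lysyl oxidases. Matricellular proteins such as thrombospondins, SPARC and tenascin C are bound to the matrix and modulate contacts between cells and matrix rather than bearing load.

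Levels of different genes can be compared only per transcript length, for which the authors' RPKM values (reads scaled by exon length and by library) serve. In the offspring of CD fathers, Sparc, a collagen-binding matricellular protein, had the highest level of the set, 398.5 ± 61.8 RPKM (SD, n = 3). Serpinh1, the collagen chaperone HSP47, followed at 135.4 ± 29.2 RPKM, and Fn1 (fibronectin), Hspg2 (perlecan) and Dcn (decorin) lay close together at 45.5 ± 4.56, 44.7 ± 2.77 and 41.8 ± 8.21 RPKM. Sparc was also first in CD-fed F0 mice, at 189.9 ± 24.6 RPKM (SD, n = 2), but there Dcn came second at 80.6 ± 11.2 RPKM. At the other end, Fbn2 (fibrillin 2), Loxl4 (a lysyl oxidase-like enzyme) and P4ha3 were the lowest 3 of the set in the F1 controls, at 0.740 ± 0.382, 0.720 ± 0.127 and 0.0333 ± 0.0577 RPKM.

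The promoters of 4 genes are shown, picked from those that passed the test in 1 of the diet comparisons described below. For each, the first listed start whose upstream window holds no annotated exon was taken. The genes are Fbln1 (fibulin 1) and Tnxb (tenascin XB), lower in pLPD offspring, Tnc (tenascin C), higher in LPD-fed F0 mice, and Ogn (osteoglycin), lower in them. Each is the 250 bases before the RefSeq start (build GRCm38.p6, which has the mm10 coordinates), 5′ to 3′ on the strand of the gene. Capitals mark matches, on either strand, to the TATA box motif TATAAA, the GC box motif GGGCGG, the AP-1 motif TGANTCA, the TEAD motif GGAATG, the SMAD motif CAGAC and the E-box motif CACGTG.
Fbln1, chr15:85205699-85205948, plus strand: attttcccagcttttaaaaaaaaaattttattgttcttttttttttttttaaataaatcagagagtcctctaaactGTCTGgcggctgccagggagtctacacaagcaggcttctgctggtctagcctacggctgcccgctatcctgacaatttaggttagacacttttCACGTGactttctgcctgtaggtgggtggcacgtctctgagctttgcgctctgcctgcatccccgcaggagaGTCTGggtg
Tnxb, chr17:34670285-34670534, plus strand: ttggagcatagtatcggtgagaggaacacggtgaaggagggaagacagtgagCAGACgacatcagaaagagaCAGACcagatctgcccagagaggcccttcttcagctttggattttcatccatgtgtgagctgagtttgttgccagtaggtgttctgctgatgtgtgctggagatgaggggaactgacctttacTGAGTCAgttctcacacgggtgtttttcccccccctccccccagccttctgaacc
Tnc, chr4:64047016-64047265, minus strand: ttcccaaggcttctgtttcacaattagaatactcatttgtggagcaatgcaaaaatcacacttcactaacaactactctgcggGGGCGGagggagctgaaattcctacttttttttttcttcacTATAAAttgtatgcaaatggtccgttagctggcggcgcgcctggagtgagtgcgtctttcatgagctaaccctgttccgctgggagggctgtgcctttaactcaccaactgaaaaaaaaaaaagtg
Ogn, chr13:49607765-49608014, plus strand: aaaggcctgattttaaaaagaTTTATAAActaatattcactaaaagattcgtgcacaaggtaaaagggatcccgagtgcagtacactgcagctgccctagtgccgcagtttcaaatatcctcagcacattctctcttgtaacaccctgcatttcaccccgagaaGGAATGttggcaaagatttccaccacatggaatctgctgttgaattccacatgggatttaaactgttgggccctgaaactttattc
The Fbln1 window held CAGAC at 2 places and CACGTG once, that of Tnxb held CAGAC at 2 places and TGANTCA once, that of Tnc held TATAAA and GGGCGG, and that of Ogn held GGAATG and 2 overlapping matches to TATAAA and its reverse complement. These are matches of letters and were not tested as binding sites. In the reference, 34 of the 48 genes had 44 promoters, 1 or more each, among 32851 in all. GGGCGG was present in 59.1% of the 44 and 32.7% of all, CAGAC in 47.7% and 42.2%, TATAAA in 15.9% and 12.4%, GGAATG in 6.82% and 12.6%, TGANTCA in 4.55% and 6.75%, and CACGTG in 4.55% and 6.02%.

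The comparison of F1 groups asks how the diet of the father alters iWAT of sons that never ate it. Of the 47 matrix genes tested, 9 were down-regulated in pLPD offspring (19.1%) and none was up-regulated, by edgeR's quasi-likelihood test on exon reads with Benjamini-Hochberg adjusted p under 0.05 over the 14049 genes tested. Across all genes, 1.17% passed, 1.02% in the lower direction and 0.142% in the higher. The down-regulated genes were Fbn2, Eln, Fbln1, Fbln2, Mfap4, Fn1, Tnxb, Pcolce and Bmp1. Of the 47 genes, 42 had a negative log2 fold change (89.4%, against 48.6% of all genes), and the median was −0.37, against 0.01 over all genes. At an unadjusted p under 0.05, 31 were lower and 0 higher (8.76% and 6.57% of all genes). In 25 of the 47, every pLPD mouse lay below every offspring of a CD father, which was so for 10.9% of all genes, and in none did every pLPD mouse lie above (9.21% of all genes).

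Elastic fibre and microfibril genes held 5 of the 9 down-regulated genes. Fbn2, the fibrillin most used in early life, had 20.8, 21.6 and 6.31 CPM (exon reads scaled to a common library size) in the offspring of CD fathers and 3.82, 5.01 and 3.89 CPM in pLPD offspring. The groups did not overlap, but CD mouse 3 lay nearer to the pLPD mice than to the other CD mice. The log2 fold change was −1.92 ± 0.40 (SE, adjusted p = 0.048). Eln, which encodes elastin, had 173, 164.6 and 94.8 CPM in the CD group and 83.8, 68.0 and 71.3 CPM in the pLPD group, again with CD mouse 3 closest to the pLPD mice (log2 fold change −0.95 ± 0.19, adjusted p = 0.0429). Mfap4, a microfibril-associated glycoprotein, was the gene with the most negative fold change of the set, with 5.66, 5.43 and 3.76 CPM against 0.764, 1.22 and 0.623 CPM (log2 fold change −2.46 ± 0.39, adjusted p = 0.0173). It rested on few reads, 28 to 47 per CD library and 4 to 9 per pLPD library.

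Fbln1 and Fbln2 encode fibulins, which bind elastin, fibrillin and fibronectin. Fbln1 (promoter above) had 21.6, 20.1 and 19.2 CPM in the CD group and 13.3, 12.3 and 10.4 CPM in the pLPD group, with a gap between the groups wider than the range within either (log2 fold change −0.74 ± 0.15, adjusted p = 0.041). Fbln2 had 82.6, 86.6 and 71.5 CPM against 57.5, 55.0 and 54.9 CPM (log2 fold change −0.52 ± 0.10, adjusted p = 0.0338). Both were even within groups. Fbn1, the main fibrillin, stood just outside the threshold with 823.8, 948.6 and 570.6 CPM against 430.3, 485.2 and 485.1 CPM (log2 fold change −0.73 ± 0.16, adjusted p = 0.0512). Over the 15 genes of this role, 13 were lower at an unadjusted p under 0.05 (8.76% of all genes). In 12, every pLPD mouse lay below every CD mouse (10.9% of all genes), and the median log2 fold change was −0.52. The highest was Ltbp2, a microfibril protein of the latent TGF-beta binding family, with 69.7, 70.5 and 77.7 CPM against 69.4, 67.3 and 86.5 CPM (log2 fold change 0.04 ± 0.11, adjusted p = 0.891), and Efemp1 (fibulin 3) also overlapped between groups (−0.07 ± 0.17).

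**Figure D1:**
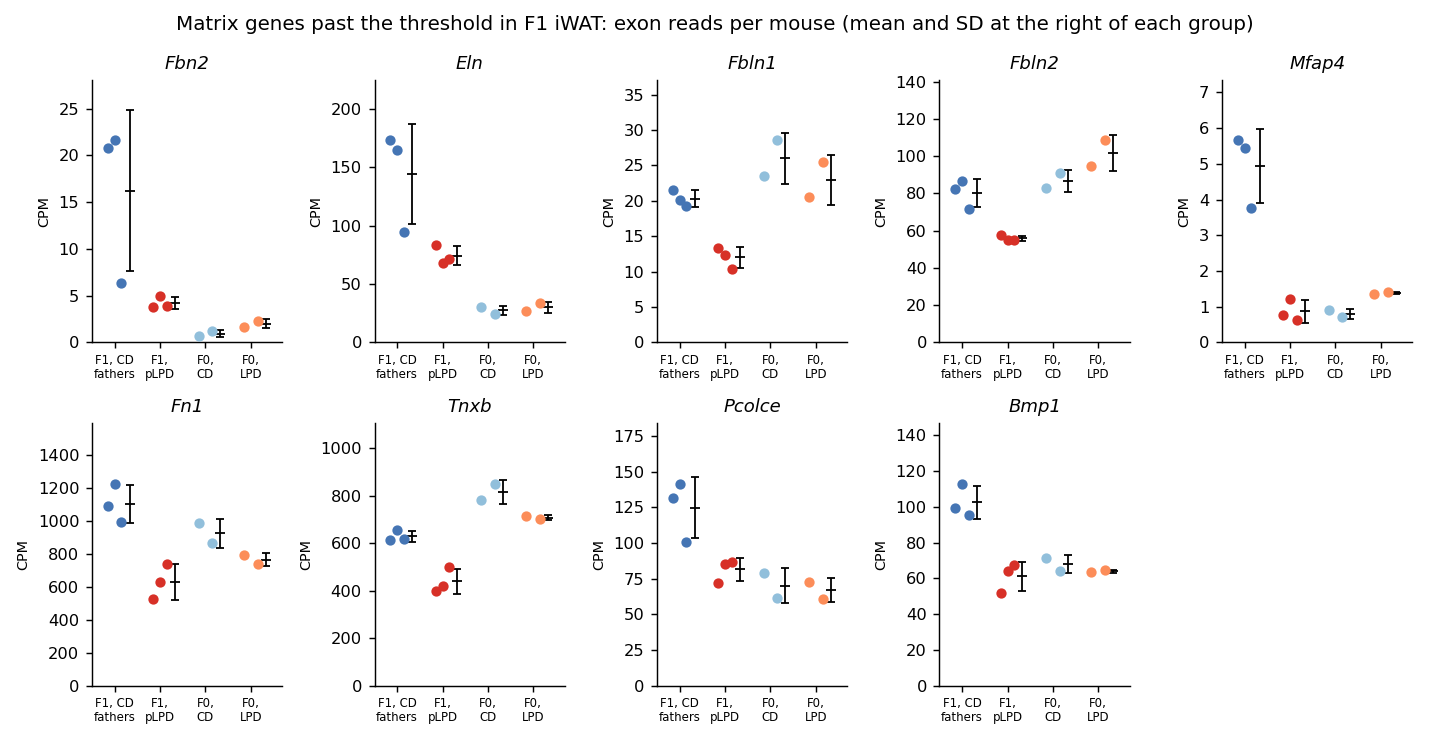
Exon reads in CPM (vertical axis, from 0) of the 9 matrix genes down-regulated in pLPD offspring, 1 point per mouse in the 4 groups, with mean and SD beside each group. In every panel the 3 pLPD mice lie below the 3 F1 controls, and for Fbn2 and Eln CD mouse 3, at 6.31 and 94.8 CPM, is the control nearest to them.

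Among the adhesive and matricellular glycoproteins, Fn1 and Tnxb were down-regulated. Fn1, which links integrins to collagen and fibrin, had 1086, 1225 and 994.8 CPM in the offspring of CD fathers and 522.5, 625.8 and 735.2 CPM in pLPD offspring (log2 fold change −0.80 ± 0.13, adjusted p = 0.0196). Tnxb, a tenascin whose loss causes a form of Ehlers-Danlos syndrome in people, had 613.9, 654.4 and 618 CPM against 398.4, 418.8 and 498.9 CPM (log2 fold change −0.51 ± 0.10, adjusted p = 0.043). Neither overlapped between groups. Sparc (−0.37 ± 0.13, adjusted p = 0.201) and Thbs1, thrombospondin 1 (−0.44 ± 0.14, adjusted p = 0.161), had negative log2 fold changes and groups that did not overlap, without passing the test. Postn (periostin) overlapped between groups, as did Thbs2 (thrombospondin 2) and Tnc, whose 21.4, 17.6 and 18.5 CPM against 21.6, 23.2 and 15.7 CPM gave the highest log2 fold change of the role, 0.09 ± 0.16 (adjusted p = 0.851).

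Of the collagen-processing genes, Bmp1 and Pcolce passed the test. Bmp1 encodes the proteinase that removes the C-propeptide of fibrillar procollagens and activates lysyl oxidase, and Pcolce encodes the enhancer of that cleavage. Bmp1 had 99.2, 113 and 95.2 CPM in the CD group and 51.5, 64.3 and 67.2 CPM in the pLPD group (log2 fold change −0.74 ± 0.11, adjusted p = 0.0155). Pcolce had 131.5, 141.6 and 100.8 CPM against 72, 85.4 and 86.8 CPM (log2 fold change −0.60 ± 0.13, adjusted p = 0.0489). Both were separate between groups. All 10 tested genes of this role had negative log2 fold changes (48.6% of all genes), with a median of −0.41. Of these, 8 had an unadjusted p under 0.05 (8.76% of all genes, in the lower direction). They included Plod1, a collagen lysyl hydroxylase, with 95.1, 94.99 and 96.4 CPM against 74.5, 71.5 and 74.7 CPM and a very small spread within groups (−0.37 ± 0.08, adjusted p = 0.0512), and Adamts2, the procollagen N-proteinase (−0.37 ± 0.09, adjusted p = 0.0905). The least negative was Plod3, another lysyl hydroxylase, with 90.5, 110.2 and 93.4 CPM against 69.6, 82.3 and 91.8 CPM (−0.26 ± 0.12, adjusted p = 0.306).

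None of the lysyl oxidases or proteoglycans passed the test in F1. The 5 lysyl oxidases had a median log2 fold change of −0.37. Loxl2 had 121, 141.4 and 113.7 CPM in the CD group and 76.9, 87.2 and 97.7 CPM in the pLPD group, without overlap (−0.51 ± 0.11, adjusted p = 0.0512). Lox, the founding member of the family, overlapped between groups, with 108.5, 131.2 and 82.7 CPM against 101.5, 92.5 and 98.4 CPM (−0.13 ± 0.14, adjusted p = 0.698). The 8 small leucine-rich proteoglycans had a median of −0.17, against −0.52 for the elastic fibre genes. Over all genes, every pLPD mouse lay below every CD mouse in 10.9% and above in 9.21%, so most genes overlapped. Likewise, the groups overlapped in 7 of the 8 proteoglycans. Bgn (biglycan) was the exception, with 133.2, 147.2 and 105.8 CPM against 100.9, 103.9 and 93.5 CPM (−0.36 ± 0.12, adjusted p = 0.166), and Podn (podocan) had the highest value, with 67.4, 64.0 and 104.4 CPM against 72.6, 79.1 and 90.6 CPM (0.05 ± 0.17, adjusted p = 0.923). Of the large proteoglycans, Vcan (versican) had 49.4, 61.6 and 40.9 CPM against 32.6, 34.4 and 47.9 CPM (−0.40 ± 0.17, adjusted p = 0.288). Hspg2, a proteoglycan of basement membranes, had 1343, 1414 and 1221 CPM against 1338, 1348 and 1388 CPM (0.04 ± 0.10, adjusted p = 0.876).

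The F1 calls moved with single libraries and with library composition. Leaving out CD mouse 1, CD mouse 2 or pLPD mouse 2 left 0 of the matrix genes past the threshold, while 17 to 29 genes of all those tested were lower in these fits. Without pLPD mouse 1 there were 2 (Fn1 and Bmp1), without pLPD mouse 3 there were 8, and without CD mouse 3 there were 14. The median log2 fold change stayed between −0.46 and −0.32. The F1 groups also differed in the share of protein-coding gene reads that fell on introns, 36.0% to 37.5% in the CD group and 40.7% to 48.4% in the pLPD group, in the share of reads on mitochondrial rRNA, 9.29% to 10.5% and 13.5% to 18.2%, and in exon reads per library, 7351881 to 8971136 and 6351075 to 7087511. When the share of reads on exons entered the fit as a covariate, 0 of the matrix genes passed, 10 genes of all those tested were lower and 1 higher, and the median of the set was −0.17. Since this share separates the groups, it cannot be told apart from the paternal diet.

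Cell type markers moved too, and their part in the values above was not tested. The fibroblast and progenitor list had 0 of 9 genes past the threshold. Of these, 7 were negative (48.6% of all genes), among them Pdgfra, Pdgfrb and Cd34, while Cd55 and Thy1 were positive. Their median was −0.26, and their summed level was 944 to 1070 CPM in the CD group and 757 to 935 CPM in the pLPD group. Macrophage markers were lower, 3 of 5 passing (Cd163, Adgre1 and Csf1r), with sums of 524 to 614.5 CPM against 349 to 417 CPM. Acta2, the smooth muscle actin also made by myofibroblasts, was lower (−0.74 ± 0.13, adjusted p = 0.0276), 1 of 6 in its list, with overlapping sums of 472 to 535 CPM and 426 to 554 CPM. The epithelial keratins Krt8 and Krt18 were lower, 2 of 4 tested, and each had no reads in 2 of the 3 pLPD libraries. All 6 epithelial markers together summed to 10.5 to 14.9 CPM in the CD group and 1.53 to 4.88 CPM in the pLPD group. Adipocyte markers had 0 of 7 past the threshold, with sums of 12940 to 14460 CPM and 12790 to 15360 CPM. For endothelium (0 of 5), lymphocytes (0 of 6), skeletal muscle (0 of 4 tested) and mesothelium (0 of 1 tested) the summed levels overlapped between the F1 groups except for mesothelium, which was near 0 at 1.84 to 4.85 CPM in all 6 libraries.

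The F0 comparison asks how eating the LPD altered the iWAT of the adult males themselves. Here the matrix genes split: 3 of 47 were lower and 4 higher in LPD-fed mice (14.9%, against 2.50% of the 14581 genes tested, 1.32% lower and 1.18% higher), and the median log2 fold change was −0.04, against 0.00 over all genes. The lower genes were Dcn, Ogn and Ltbp1, and the higher genes were Prelp, Sparc, Tnc and Thbs1. With 2 mice a group, 15 genes had both LPD mice below both CD mice and 18 had both above, against 23.6% and 22.8% of all genes, so that non-overlap says little here. No gene was past the threshold in both generations.

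Small leucine-rich proteoglycans moved in both directions. Dcn, which decorates and spaces collagen fibrils, had 812.1 and 969.4 CPM in CD-fed mice and 586.6 and 570.3 CPM in LPD-fed mice (log2 fold change −0.62 ± 0.13, adjusted p = 0.0439). Ogn (promoter above), a relative with the same repeat fold, had 135.7 and 140 CPM against 94.1 and 90.1 CPM (−0.58 ± 0.09, adjusted p = 0.0164). Prelp, a proline- and arginine-rich member that anchors basement membranes to connective tissue, had 345.1 and 375.8 CPM against 740.7 and 1172 CPM (1.41 ± 0.20, adjusted p = 0.0136). The LPD-fed mice thus lay apart from the controls for each gene, and for Prelp also from each other. Bgn stood just outside the threshold, with 151.3 and 134.3 CPM against 183.8 and 222.5 CPM (0.51 ± 0.12, adjusted p = 0.0589). Of the exon reads of Ogn and Prelp, 45.2% and 31.8% were counted as unique. Both overlap a gene with exons on the opposite strand, Cenpp for Ogn and Gm15851 for Prelp. With unique reads alone, Ogn and Prelp had log2 fold changes of −0.65 (adjusted p = 0.00915) and 1.25 (adjusted p = 0.0111).

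Adhesive and matricellular genes were the role with the most F0 increases, 3 of 7. Thbs1, which binds integrins and CD36 and can activate latent TGF-beta, had 21.9 and 21.3 CPM in CD-fed mice and 47.2 and 73.9 CPM in LPD-fed mice (1.48 ± 0.19, adjusted p = 0.011). Sparc had 1504 and 1226 CPM against 2119 and 3096 CPM (0.93 ± 0.20, adjusted p = 0.0497). Tnc (promoter above), a tenascin of remodelling tissue, had 12.4 and 11.5 CPM against 20.1 and 22.5 CPM (0.84 ± 0.14, adjusted p = 0.0232). For Thbs1, Sparc and Prelp the level of LPD mouse 2 was the highest of the 4. The lowest of the role was Fn1, with 985.4 and 862.2 CPM against 791.4 and 734.3 CPM (−0.28 ± 0.12, adjusted p = 0.333). Thbs1 passed the test in every alternative and whichever mouse was left out, while Tnc did not pass with unique reads, which were 60.4% of its total (0.72, adjusted p = 0.0726).

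In the other roles, Ltbp1 alone passed. This gene, which holds latent TGF-beta in the matrix, had 88.3 and 90.7 CPM against 64.3 and 69.6 CPM (−0.42 ± 0.09, adjusted p = 0.0448). It lay in the role of the elastic fibre genes, whose lowest value was that of Efemp1, with 108.5 and 122.4 CPM against 76.7 and 89.7 CPM (−0.47 ± 0.11, adjusted p = 0.0573). The highest in that role was Fbn2, at 0.671 and 1.197 CPM against 1.68 and 2.34 CPM (1.07 ± 0.46, adjusted p = 0.303), near the level of 3 reads, which was 0.299 to 0.347 CPM in F0. Fbln5 (fibulin 5) had 19.9 and 20.8 CPM against 29.2 and 44.9 CPM (0.86 ± 0.19, adjusted p = 0.0526). Among the lysyl oxidases, Lox had 106.5 and 83.7 CPM against 138.2 and 217.9 CPM (0.91 ± 0.20, adjusted p = 0.0526), and Loxl1, which acts mainly on elastin, 134.2 and 111.2 CPM against 104.9 and 101.8 CPM (−0.25 ± 0.11, adjusted p = 0.303).

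Collagen processing and the large proteoglycans held no gene past the threshold in F0. Plod2, the telopeptide lysyl hydroxylase, had the highest log2 fold change in processing, with 5.14 and 7.48 CPM against 9.44 and 11.2 CPM (0.70 ± 0.23, adjusted p = 0.168). P4ha2, a prolyl hydroxylase subunit, had the lowest, with 23.4 and 18.9 CPM against 14.5 and 16.4 CPM (−0.45 ± 0.15, adjusted p = 0.186). Hspg2 had 1103 and 1058 CPM against 1353 and 1849 CPM (0.57 ± 0.16, adjusted p = 0.119), and Vcan 53.5 and 53.5 CPM against 51.3 and 47.2 CPM (−0.12 ± 0.09, adjusted p = 0.602).

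The F0 counts also depended on single mice. Without CD mouse 1 there were 1 lower and 2 higher genes, without CD mouse 2 there were 0 and 2, without LPD mouse 1 there were 2 and 9, and without LPD mouse 2 there were 0 and 2. The share of reads on mitochondrial rRNA was 9.59% to 9.85% in CD-fed and 10.9% to 12.4% in LPD-fed mice, without overlap, while the intron share of protein-coding gene reads overlapped, at 36.4% to 37.95% and 36.3% to 37.5%. Skeletal muscle markers differed between the F0 groups: all 6 were negative and 4 passed the test (Tnnt1, Acta1, Myh1 and Myh7), with sums of 1123 to 1645 CPM in CD-fed and 578 to 788 CPM in LPD-fed mice. Fibroblast and progenitor markers had 0 of 9 past the threshold, with sums of 1021 to 1074 CPM and 920 to 944 CPM. Macrophage markers had 1 of 5 lower (Cd163), with sums of 574 to 595 CPM and 487 to 504 CPM. Smooth muscle markers had 1 of 6 lower (Myh11), with sums of 573 to 616 CPM and 498 to 513 CPM. Lymphocyte markers had 1 of 6 higher (Ms4a1), with sums of 547 to 607 CPM and 630 to 725.5 CPM. None of the 7 adipocyte markers passed, but all were positive, with sums of 15560 to 16460 CPM and 16610 to 21570 CPM. The endothelial (0 of 5), epithelial (0 of 1 tested) and mesothelial (0 of 1 tested) lists had none. The part of these cells and of the mitochondrial share in the matrix values was not tested.

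**Figure D2:**
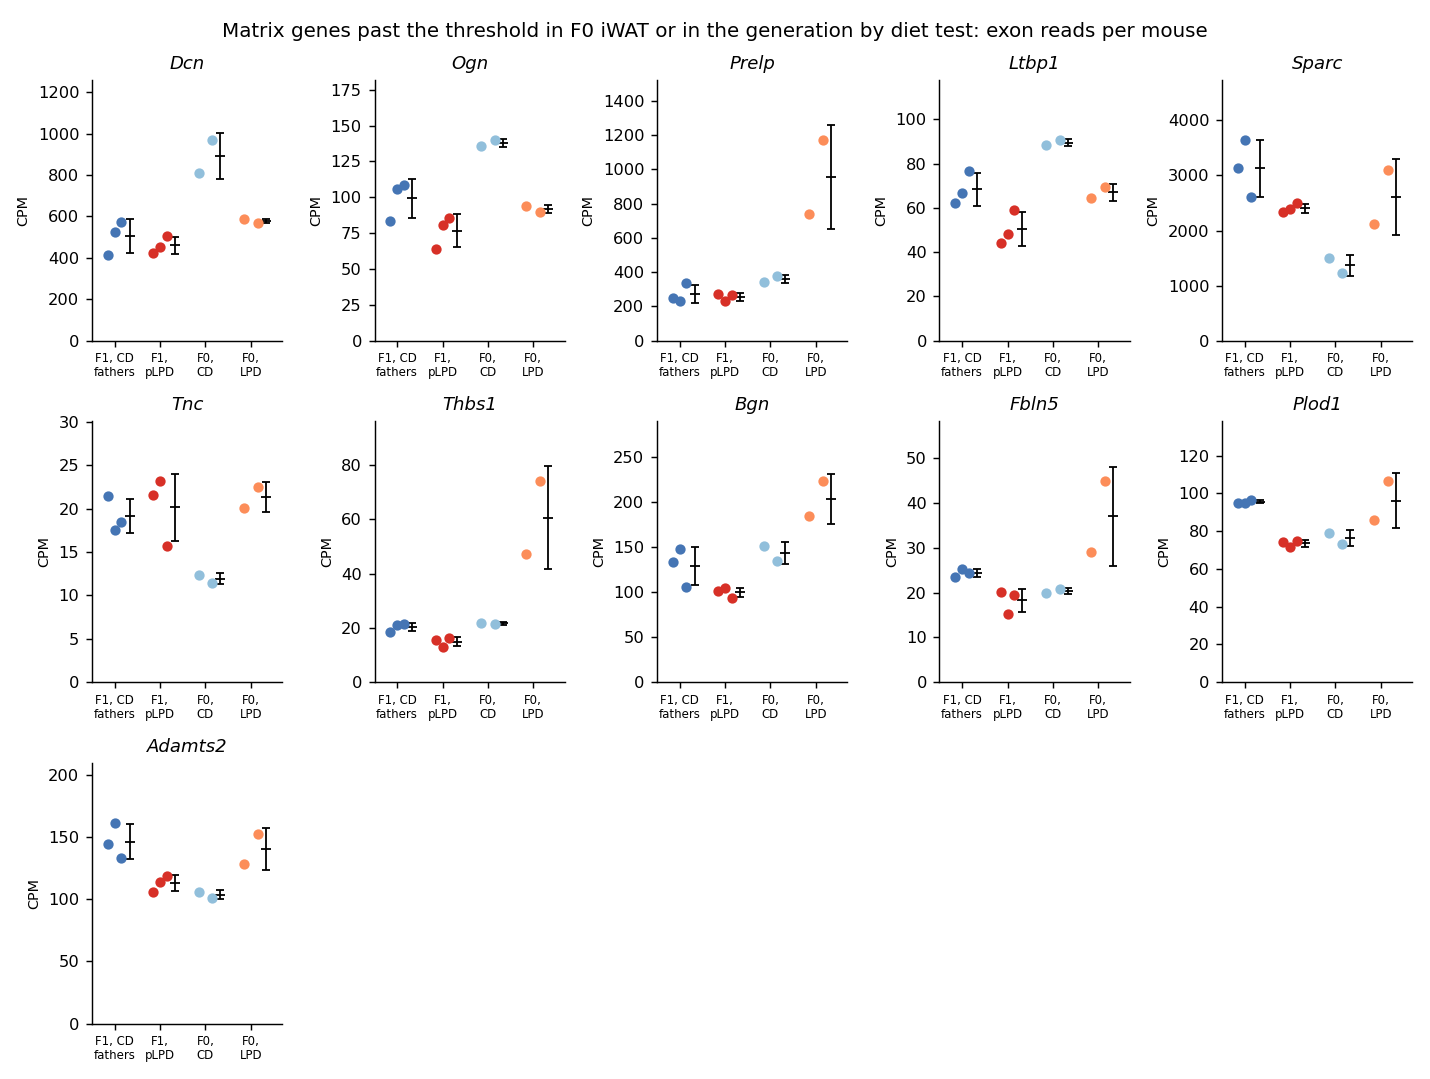
Exon reads in CPM (vertical axis, from 0) of the 7 matrix genes past the threshold in F0 and of 4 more (Bgn, Fbln5, Plod1 and Adamts2) past it in the test of generation by diet, 1 point per mouse in the 4 groups, with mean and SD beside each group. Thbs1 and Prelp lie apart in the 2 LPD-fed F0 mice, at 47.2 and 73.9 CPM and at 740.7 and 1172 CPM, above all other mice.

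Whether the response to the father's diet in F1 differed from the response to the mouse's own diet in F0 was tested as an interaction over all 10 libraries. The difference was negative, F1 below F0, for 39 of 47 matrix genes (50.4% of all genes), with a median of −0.55 against 0.00 over all genes. It passed the threshold for 9 genes in that direction and for 0 in the other (19.1%, against 1.25% of the 15111 genes tested, 0.893% lower and 0.357% higher). These 9 were the proteoglycan genes Bgn and Prelp, the elastic fibre genes Fbln2, Fbln5 and Mfap4, the matricellular genes Sparc and Thbs1, and the collagen-processing genes Plod1 and Adamts2. The interaction uses the same libraries as the separate comparisons and is no independent evidence for them. F1 and F0 mice also differed in age and were separate sets of libraries, and these cannot be told apart from the generation.

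Thbs1 had the smallest p of the set, with a log2 fold change of −0.44 ± 0.14 in F1 and 1.48 ± 0.19 in F0 and a difference of −1.94 ± 0.25 (adjusted p = 0.00582). In F1 it had 18.6, 21.2 and 21.3 CPM in the CD group and 15.4, 13 and 16.3 CPM in the pLPD group, next to its F0 rise to 47.2 and 73.9 CPM. It stayed past the threshold with each of the 10 mice left out. Sparc differed by −1.31 ± 0.24 (adjusted p = 0.0229), with 3142, 3645 and 2611 CPM against 2330, 2400 and 2491 CPM in F1. The difference for Prelp, −1.50 ± 0.26 (adjusted p = 0.019), came with F1 levels that overlapped, 249.5, 232.6 and 333.8 CPM against 272.6, 230.1 and 264.3 CPM (log2 fold change −0.08).

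For Mfap4 the difference was −3.26 ± 0.62 (adjusted p = 0.0257), from −2.46 in F1 and 0.79 ± 0.46 in F0, where its 0.894 and 0.698 CPM against 1.36 and 1.40 CPM rested on 7 to 13 reads per library. The fibulins Fbln5 and Fbln2 differed by −1.28 ± 0.24 and −0.75 ± 0.14 (both adjusted p = 0.0257). In F1 Fbln5 had 23.4, 25.3 and 24.3 CPM against 20.0, 15.3 and 19.5 CPM, and in F0 Fbln2 had 82.7 and 91.1 CPM against 94.9 and 108.5 CPM. Bgn differed by −0.88 ± 0.18 (adjusted p = 0.0393). Plod1 (−0.71 ± 0.14, adjusted p = 0.0257) had 79.1 and 73.2 CPM against 85.9 and 106.3 CPM in F0, and Adamts2 (−0.81 ± 0.15, adjusted p = 0.0216) 106.1 and 101.3 CPM against 128.4 and 152.3 CPM in F0, beside 144.4, 161.4 and 133.3 CPM against 106.2, 113.7 and 118.9 CPM in F1. Each of the 9 had a negative log2 fold change in F1 and a positive one in F0, although only Fbln2 and Mfap4 passed the F1 test and only Prelp, Sparc and Thbs1 the F0 test. Over the set, 20 genes were negative in F1 and positive in F0, 22 negative in both, 3 positive in both and 2 positive in F1 and negative in F0.

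**Figure D3:**
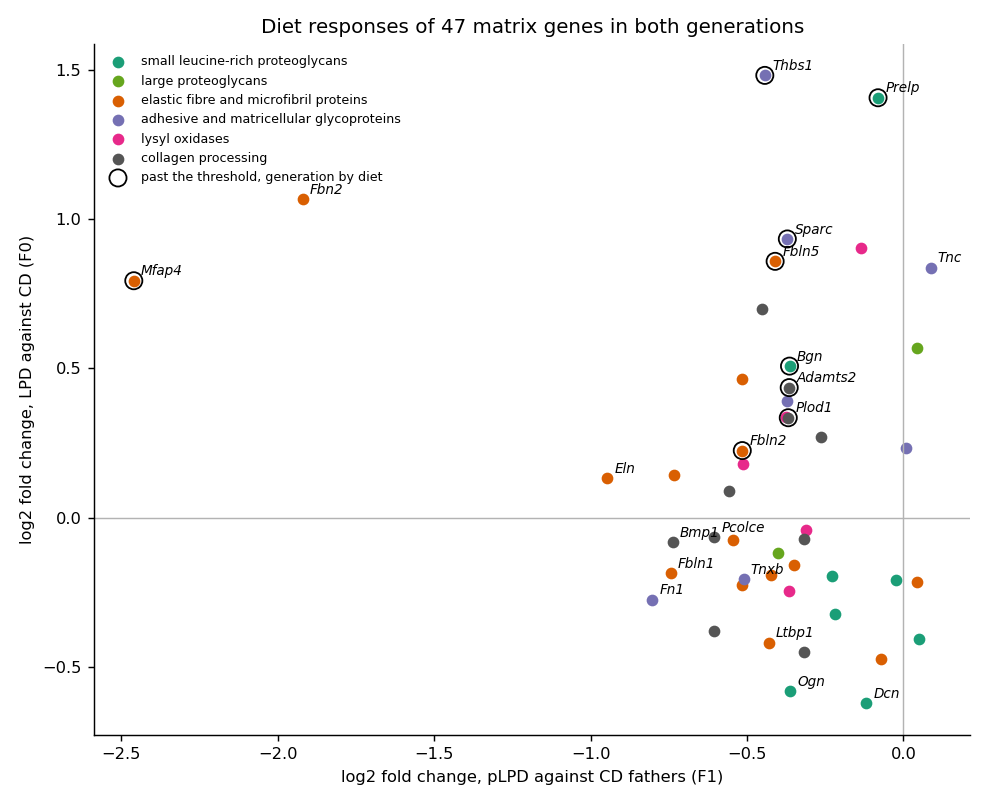
Log2 fold change of the 47 tested matrix genes with the father's diet in F1 (horizontal axis) and with the mouse's own diet in F0 (vertical axis), coloured by role, with rings around the 9 genes past the threshold for generation by diet. All ringed genes lie above 0 in F0 and below 0 in F1, from Mfap4 at −2.46 on the horizontal axis to Prelp at −0.08.

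The number of interaction genes ranged from 1 to 17 as single mice were left out. It was 2 without F0 CD mouse 1, 1 without F0 CD mouse 2, 1 without F0 LPD mouse 2, 2 without F1 CD mouse 1, 3 without F1 CD mouse 2 and 2 without F1 pLPD mouse 2, and 17 without F1 CD mouse 3, while the median stayed between −0.61 and −0.45.

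The controls of the generations, 5-week-old offspring of CD fathers and CD-fed males of 10 to 12 weeks, differed widely in the matrix set. Of the 47 genes, 17 were higher and 8 lower in F1 (53.2%, against 18.9% of the 15111 genes tested, 10.1% higher and 8.78% lower). Fbn2, Mfap4 and Eln had the highest log2 fold changes, 4.08 ± 0.54 (adjusted p = 0.000286), 2.62 ± 0.42 (adjusted p = 0.000947) and 2.40 ± 0.23 (adjusted p = 2.4e-05). In CPM, Fbn2 averaged 16.2 ± 8.60 (SD, n = 3) in F1 and 0.934 ± 0.372 (SD, n = 2) in F0. Postn, a matricellular protein of growing connective tissue, followed at 2.09 ± 0.18. Podn, Efemp1 and Dcn had the lowest, −1.46 ± 0.17 (adjusted p = 9.6e-05), −1.18 ± 0.17 (adjusted p = 0.000534) and −0.82 ± 0.13 (adjusted p = 0.00112).

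By role, collagen processing had 5 of 10 higher (Serpinh1, Pcolce, Bmp1, Adamts2 and Plod1) and 0 lower, elastic fibre genes 6 higher and 3 lower, adhesive genes 3 higher (Postn, Sparc and Tnc) and 2 lower (Thbs2 and Tnxb), small leucine-rich proteoglycans 2 higher (Aspn and Lum) and 3 lower, and lysyl oxidases 1 higher (Loxl2). This comparison shares its control libraries with both diet comparisons. Fbn2, Mfap4 and Eln, which led it, had F1 diet responses of −1.92, −2.46 and −0.95, but both sets of values rest on the same 3 F1 control mice. Skeletal muscle markers were lower in F1, 6 of 6, with sums of 66.4 to 137 CPM in F1 and 1123 to 1645 CPM in F0 controls, and adipocyte markers were lower in 2 of 7 (Adipoq and Plin1). Fibroblast and progenitor markers had 1 of 9 higher (Ly6a) and none lower. Smooth muscle and myofibroblast markers were lower in 3 of 6 (Acta2, Myh11 and Tagln), with sums of 472 to 535 CPM in F1 and 573 to 616 CPM in F0 controls. Endothelial markers were higher in 1 of 5 (Cdh5), with sums of 494 to 675 CPM and 433 to 481.5 CPM, and epithelial markers in 2 of 4 tested (Krt8 and Krt18), with sums of 10.5 to 14.9 CPM and 3.24 to 5.39 CPM. None of the 5 macrophage and 6 lymphocyte markers passed. The part of these cells in the matrix values was not tested.

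**Figure D4:**
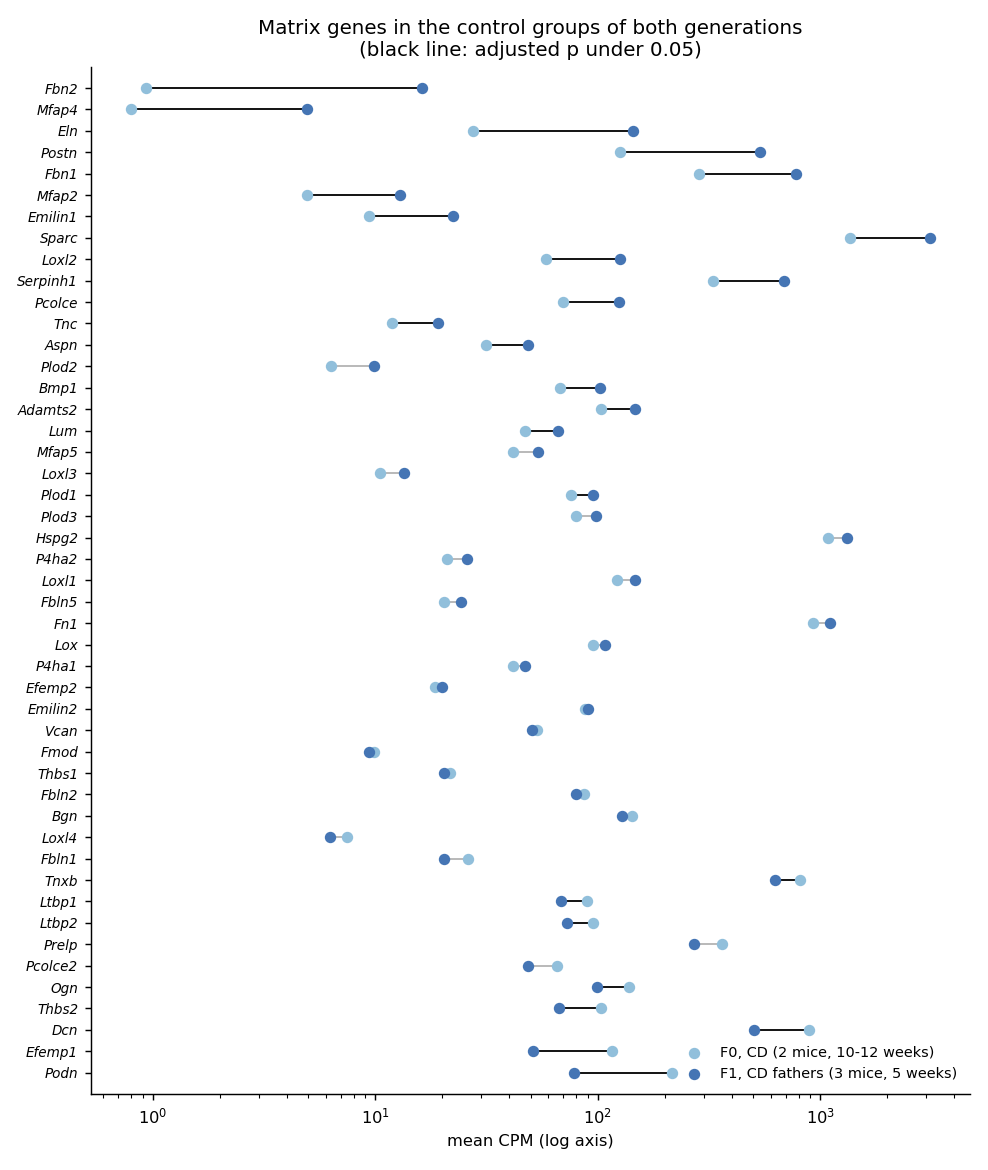
Mean CPM (horizontal log axis) of the 47 tested matrix genes in the F0 controls (2 mice) and the F1 controls (3 mice), sorted by log2 fold change, with a black line where the difference passed the threshold and a grey line where it did not. Fbn2, Mfap4, Eln and Postn at the top were higher at 5 weeks, and Podn, Efemp1 and Dcn at the bottom lower.

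Reads on introns, which come largely from unspliced transcripts, were tested apart for the 43 genes with enough of them. In F1, 2 were lower in pLPD offspring and 0 higher (4.65%, against 0.424% of the 13456 genes tested, 0.26% lower and 0.163% higher). Fbn1 had 380.7, 400 and 212.1 intron CPM in the CD group and 173.3, 114.7 and 138.9 in the pLPD group (log2 fold change −1.22 ± 0.21, adjusted p = 0.0309). Fn1 had 88.2, 78.4 and 80.5 against 44.7, 41.8 and 60.6 intron CPM (−0.76 ± 0.13, adjusted p = 0.0348), close to its exon value of −0.80. Fbn2 had −1.87 ± 0.37 (adjusted p = 0.055) beside −1.92 on exons, and Eln −0.52 ± 0.12 (adjusted p = 0.0773) beside −0.95. Of the 43 genes, 35 were negative (50.4% of all genes), and the median was −0.43, against 0.00 over all genes. The number past the threshold was 0 without CD mouse 1, CD mouse 2 or pLPD mouse 2, 1 without pLPD mouse 1 or pLPD mouse 3 and 7 without CD mouse 3. Exon and intron reads come from the same libraries, so they are no independent samples.

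In F0, 9 of the 43 genes passed on intron reads (20.9%, against 3.48% of the 14334 genes tested, 2.12% lower and 1.36% higher), 3 lower and 6 higher in LPD-fed mice. Podn had 137.2 and 152.5 against 75.9 and 89.4 intron CPM (−0.81 ± 0.10, adjusted p = 0.00276), Ltbp2 277.6 and 293 against 177.3 and 189.5 (−0.63 ± 0.08, adjusted p = 0.00252), and Loxl3, a lysyl oxidase-like enzyme, −0.80 ± 0.18 (adjusted p = 0.0442). On exons the same 3 genes had −0.41 ± 0.10, −0.22 ± 0.09 and −0.04 ± 0.18, and none passed. Podn overlaps Scp2, a gene with exons on the same strand, so its intron reads may include reads of Scp2. The higher genes were Prelp, Hspg2, Postn, Thbs2, Loxl2 and P4ha1, of which only Prelp also passed on exons. P4ha1, a catalytic subunit of prolyl 4-hydroxylase, had 58.0 and 61.9 against 123.3 and 87.0 intron CPM (0.82 ± 0.15, adjusted p = 0.0183) and an exon value of −0.07 ± 0.10. Thbs1 had 1.41 ± 0.34 on introns (adjusted p = 0.0601) beside 1.48 on exons. Without LPD mouse 2 there was 1 higher gene in place of 6, and without CD mouse 1 there were 7 lower in place of 3.

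**Figure D5:**
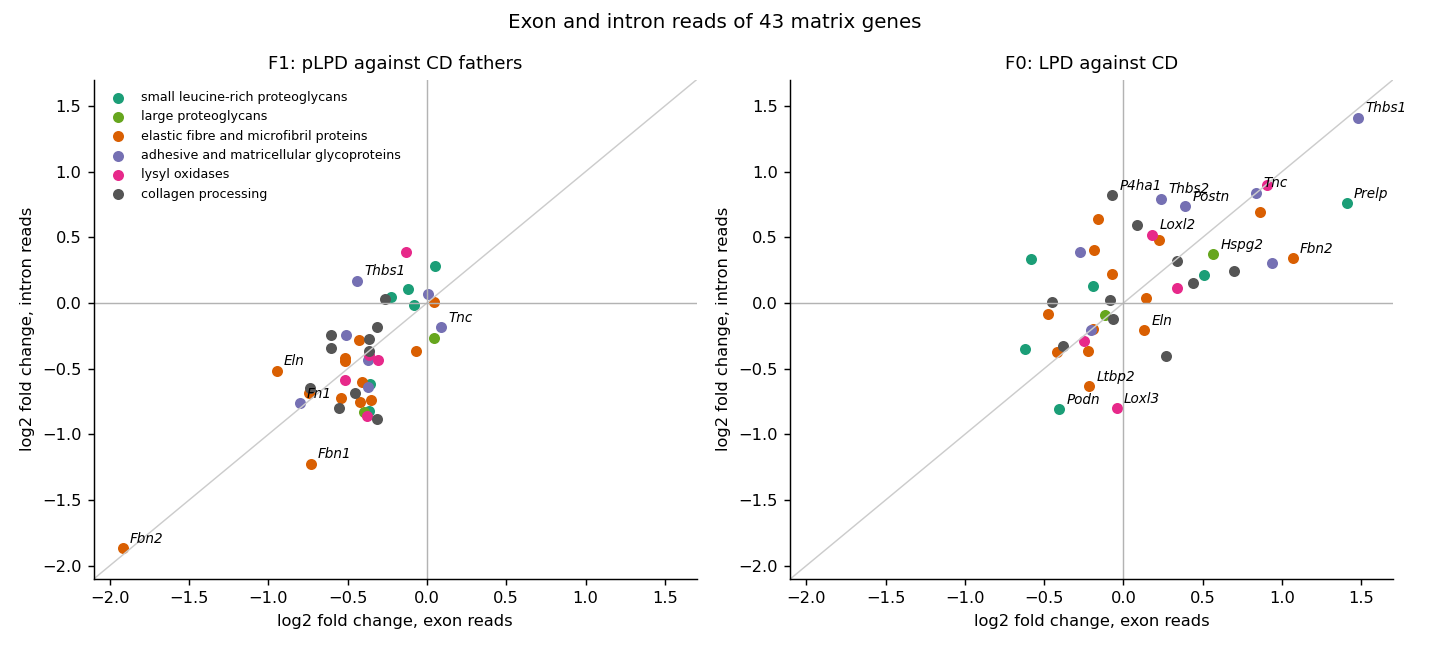
Log2 fold change on exon reads (horizontal axis) and on intron reads (vertical axis) of the 43 matrix genes tested on both, for the paternal diet in F1 (left) and the diet in F0 (right), coloured by role; the diagonal marks equal values. In F1 35 of the 43 points lie below 0 on intron reads, with Fbn2 and Fbn1 lowest at −1.87 and −1.22, and in F0 Thbs1 lies highest on both axes at 1.48 and 1.41.

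Of 64 further matrix genes listed beside the set (basement membrane proteins, other proteoglycans and other collagen enzymes), 51 were tested in F1 and 2 were down-regulated there: Ncan (neurocan), with 44.1 ± 19.1 CPM in the CD group and 14.2 ± 2.06 CPM in the pLPD group (log2 fold change −1.63 ± 0.29, adjusted p = 0.0277), and Mmrn2, an endothelial EMILIN relative, with 47.4 ± 2.62 and 32.96 ± 2.65 CPM (−0.51 ± 0.11, adjusted p = 0.0448). None was higher, 37 were negative and 14 positive, and the median was −0.13. Over all genes in F1, 1.02% were lower, 0.142% higher and 48.6% negative. In F0, 4 of the 51 were lower (Igfbp7, Mmrn1, Ltbp4 and Nid2), 0 higher (1.32% and 1.18% of all genes), with a median of −0.11. The interaction passed for Ncan and Ltbp3, both lower (0.893% of all genes), of 53 tested. Between the controls 8 of the 53 were higher and 7 lower in F1 (10.1% and 8.78% of all genes).

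The substrates of the processing and cross-linking enzymes, 6 fibrillar collagen genes, all had negative log2 fold changes in pLPD offspring (48.6% of all genes, median −0.59). Of these, Col1a2 passed the test (−0.87 ± 0.18, adjusted p = 0.0466), as did 1.02% of all genes in the lower direction. The summed level of the 6 genes was 17930 to 30980 CPM in the F1 CD group and 13010 to 16390 CPM in the pLPD group. In F0, 5 of the 6 were positive (median 0.17) and 0 passed. In the F1 controls all 6 were higher than in the F0 controls (10.1% of all genes, median 2.11), whose sums were 3071 to 4569 CPM. The 3 TGF-beta genes, whose products the latent TGF-beta binding proteins hold, had 0 past the threshold in either diet comparison, with medians of −0.10 in F1 and −0.17 in F0.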

How the data were processed

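Total RNA from iWAT of 10 male mice was depleted of rRNA, made into directional libraries and sequenced as read pairs; for alignment to the mm10 genome the authors used CLC Genomics Workbench. The deposited read counts per gene (total exon, unique exon, intron and whole-gene reads) are not normalized. The RPKM values were computed by the authors from total exon reads, exon length and a total per library of 14462489 to 19039664 reads, and were used only to compare genes with each other. Whether counting used strand is not given in the sources used here, and 19 of the 48 genes overlap another gene with exons, mostly on the opposite strand (among the genes that passed a diet test or the interaction on exon reads: Eln, Mfap4, Fn1, Tnxb, Pcolce, Ogn, Prelp, Tnc, Thbs1 and Adamts2; on intron reads: Fbn1, Fn1, Prelp, Podn, Loxl2 and Loxl3), so reads of such pairs may not be told apart. For 8 genes under 95% of exon reads were unique, for 4 of them (Emilin2, Prelp, Ogn and Loxl2) under 50%. Each of the 8 overlaps a gene with exons on the opposite strand.

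Groups came from the sample labels. Total exon reads, 6351075 to 10044546 per library, were tested with edgeR 4.0.16 in R 4.3.3 (filterByExpr, TMM scaling, quasi-likelihood F test), F1 and F0 apart, and all 10 libraries together for the interaction and the controls. Benjamini-Hochberg adjustment ran over all genes tested, with a threshold of 0.05, and intron reads were tested alike. SEs are the log2 fold change over the root of F. CPM values are TMM-scaled exon reads, and a level of 3 reads was 0.299 to 0.472 CPM, which covers counting error only. The fits were tested on counts simulated from the model they assume. Changes were placed only in well-expressed genes, and the groups did not differ in composition. Such counts cannot show how the fits treat changes in genes with few reads or the composition of the F1 libraries. Mice of 1 group differed by more than sampling noise. On reads scaled by library total, squared differences averaged 4.59 to 13.1 times the variance of counting per gene.

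Genes given mouse by mouse are those past the threshold in F1, F0 or the interaction and the lowest and highest of each role in F1 and F0; for the controls, the lowest 3 and highest 3. Further genes close to the threshold (Fbn1, Plod1 and others) and genes called on introns were added after their values were seen. The set and all lists were chosen with earlier results of these data known. Alternatives were DESeq2 1.42.0, other size factors, other filters on low counts, unique or whole-gene reads, a replicate block, 1 fit of all groups, the exon share as a covariate, exon scaling for intron reads, and each mouse left out. Promoters are from RefSeq (GRCm38.p6), exons from GENCODE vM21. The markers of 1 further cell type are not reported here.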

Additional observations from a re-analysis of the deposited data

Results flagged for a closer look

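In 9 matrix genes the diet response in F1 differed from that in F0 by the interaction test (edgeR's quasi-likelihood test, adjusted p from 0.00582 to 0.0393), which is what singled them out. The differences, F1 response minus F0 response on the log2 scale, were −1.94 for Thbs1, −1.50 for Prelp, −1.31 for Sparc, −3.26 for Mfap4, −1.28 for Fbln5, −0.75 for Fbln2, −0.88 for Bgn, −0.81 for Adamts2 and −0.71 for Plod1. Age and library set coincide with generation and cannot be told apart from it. When the mice were left out in turn, Thbs1 stayed past the threshold, while each of the other 8 lost it in several of the fits. The difference stayed negative for all 9. Fits without an F0 mouse leave 1 mouse in its group.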

How the results depend on the processing

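The F1 count of 9 lower matrix genes became 23 with no filter on low counts and 0 with the exon share as a covariate, where the median log2 fold change moved from −0.37 to −0.17. It was 6 to 13 under DESeq2 (13), other size factors (12), 1 fit of all groups (13), at least 10 reads in every library (11), unique reads (11) and whole-gene reads (6). Leaving out a mouse gave 0 to 14 genes and medians of −0.46 to −0.32. With the covariate the F1 log2 fold change changed sign for Postn (0.12), Tnc (−0.13), Plod3 (0.083), Mfap5 (0.049), Serpinh1 (0.12), P4ha1 (0.06), Ogn (0.005) and Vcan (0.023), and with whole-gene reads for Tnc (−0.017) and Hspg2 (−0.006), none of them past the threshold. With single mice left out it changed sign for Podn (−0.08 to 0.31), Lox (−0.29 to 0.037), Tnc (−0.036 to 0.23), Ltbp2 (−0.08 to 0.10) and Hspg2 (−0.013 to 0.092). The cause was not tested.

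In F0, the 3 lower and 4 higher genes became 6 and 12 with no filter (median 0.009 in place of −0.04), 6 and 9 with the covariate, and 0 and 5 with all groups in 1 fit. Without single mice they were 0 to 2 and 2 to 9, with medians of −0.032 to 0.044. The interaction count of 9 lower and 0 higher became 15 and 0 with DESeq2 and 24 and 1 with no filter, and 1 to 17 and 0 to 1 without single mice. Between controls, 8 lower and 17 higher became 3 to 9 and 9 to 18 without single mice. On introns, the 2 lower in F1 became 6 with DESeq2, 15 with no filter and 0 to 7 without single mice. The 6 higher in F0 became 2 with DESeq2, 12 with no filter and 1 to 8 without single mice, the 3 lower became 2 to 7, and the median 0.051 to 0.29.

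Over all genes the counts ranged, across all alternatives other than leaving out mice, from 10 to 564 lower and 1 to 234 higher in F1 (144 and 20), from 65 to 733 and 110 to 656 in F0 (192 and 172), and from 129 to 576 and 56 to 314 for the interaction (135 and 54).

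The labels number the mice alike in both diets but state no shared litter or batch. In F1, deviations of same-numbered mice correlated by 0.009 to 0.074, and those of other pairs by −0.082 to 0.066. In F0, with 2 mice a group, the values of 0.056 and −0.056 mirror each other and cannot decide. The numbers were not taken as pairs. With the replicate block, 13 matrix genes were lower in F1, 7 lower and 13 higher in F0, 10 lower in the interaction, 4 lower on F1 introns and 10 higher on F0 introns. Over all genes the block gave 212 lower and 48 higher in F1, and 733 and 656 in F0, where 2 mice a group and a block leave little to measure spread from.

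Over the genes named in each comparison and these settings, 701 values kept direction and side of the threshold, 78 passed it anew, 34 lost it and 10 changed sign; without single mice these were 533, 14, 154 and 7. The genes counted were 36 in F1 and 26 in F0 on exon reads, of which 9 and 7 passed, so many kept values stayed outside the threshold. A value of the same sign but without an adjusted p was counted as kept. Depth limits Mfap4, Fbn2 in F0 and P4ha3 most, each with libraries at 13 or fewer reads.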
